A study of Mus musculus with 2 samples.

Results

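Serpins, matrix metalloproteases (MMPs), ADAMTS proteases and their inhibitors were compared between differentiating control ESCs (Diff–CONT) and differentiating inducible Ino80 knockout ESCs (Diff–iKO). Members were chosen by gene symbol: Serpin genes of clades A to I, every Mmp, Timp, Adamts and Adamtsl gene, and Plau, Plat, Plaur, Plg, Thbs1, Thbs2 and Reck. Described here are 120 of the 24354 genes with FPKM values (fragments per kilobase, a level relative to transcript length and library size). By the textbook role of the symbol, 45 members were counted as proteases and 61 as protease inhibitors. Serpina3h and Serpinb10 among these inhibitors and Mmp1a among these proteases are annotated as pseudogenes, the last 2 as polymorphic ones. The other 14 are receptors, matrix proteins, serpins without inhibitory activity, ADAMTS-like proteins that lack the protease domain, and a pseudogene.

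Diff–CONT ESCs came from Ino80 2f/2f blastocysts without CreER, although the sample labels call their genotype wild type. Diff–iKO ESCs carried Ino80 2f/2f and ROSA26-CreER, a Cre recombinase that 4-hydroxytamoxifen (4-OHTM) activates in every cell that expresses it. Both lines formed embryoid bodies, were attached, and were then kept with BMP4, serum and 0.5 µM 4-OHTM for 7 days, so the control cells received the drug too. Poly(A) RNA of 1 culture per condition was sequenced. No difference reported here has a replicate check, the conditions cannot be told apart from the 2 cultures, and no p-value is given.

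The FPKM values rose in steps worth 1 fragment, from which the depth came to about 27698837 fragments for Diff–CONT and 21558408 for Diff–iKO. Intervals are exact (Clopper-Pearson) 95% intervals on the log2 ratio, Diff–iKO over Diff–CONT, and cover counting error only. Ino80 itself, the targeted gene, stood at 8.90 FPKM in Diff–CONT and 10.3 in Diff–iKO (log2 ratio 0.21, interval 0.11 to 0.31). The whole-gene value was therefore not lower in the library labelled Diff–iKO, and it does not check the deletion of part of the gene. Across the 12376 genes reaching FPKM 2 in at least 1 library, the median log2 ratio was -0.00. Marker lists moved as well. The pluripotency list summed to 446 FPKM in Diff–CONT and 2849 in Diff–iKO, with 7 of 8 genes at least 2-fold higher. The visceral endoderm list summed to 320 and 21.4 FPKM, with 7 of 8 genes at least 2-fold lower. In bulk RNA, fewer cells of a type and less RNA per cell cannot be told apart.

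Proteases of the extracellular space are made by many cells as inactive precursors, and their activity is set by activators, receptors and inhibitors around the cell. Serpins trap serine proteases by acting as a bait that is cut and then changes shape, which leaves protease and serpin bound together. TIMPs bind the zinc-containing active site of metalloproteases, and Reck is a membrane-anchored inhibitor of several MMPs. MMPs and ADAMTS proteases cut collagens, proteoglycans and the precursors of matrix proteins. RNA levels say nothing about how much of each protease was active.

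The summed level of the inhibitors was higher in Diff–iKO, while single proteases differed in both directions and their summed level was slightly lower. A member was counted as past the cut-off when its FPKM differed at least 2-fold and reached 2 in at least 1 library. Of 57 members reaching FPKM 2, 20 were past the cut-off upwards and 8 downwards. Of all 12376 genes reaching FPKM 2, 6.73% were past it upwards and 8.39% downwards (15.1% in either direction). Among the inhibitors, 20 reached FPKM 2, of which 12 were higher, 1 was lower (Reck) and 7 did not pass. Their median log2 ratio was 1.30, but 0.43 with no minimum, and 0.64 without Serpinb9b to Serpinb9g, a run of related genes that held 6 of the 12. The value with no minimum takes in genes of few fragments. It lies near 0.42, the log2 ratio of any gene with equal fragments in both libraries. Of the 12 higher inhibitors, 8 reached FPKM 2 only in Diff–iKO, so their direction was fixed by the minimum (Serpina3m, Serpina3n, Serpinb1a, Serpinb9c, Serpinb9d, Serpinb9f, Serpinb9g and Timp4). Among the 12 inhibitors at FPKM 2 or more in Diff–CONT, 4 were higher and 1 lower, with a median of 0.49. Among the proteases, 27 reached FPKM 2, of which 4 were higher (Plau, Mmp17, Mmp19, Adamts14), 7 were lower and 16 did not pass. Their median log2 ratio was -0.15, and 2 of the 7 lower ones (Adamts3, Adamts17) reached FPKM 2 only in Diff–CONT. A further 63 members stayed below FPKM 2 in both libraries, and 19 of these were listed at 0 in both.

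**Figure D1:**
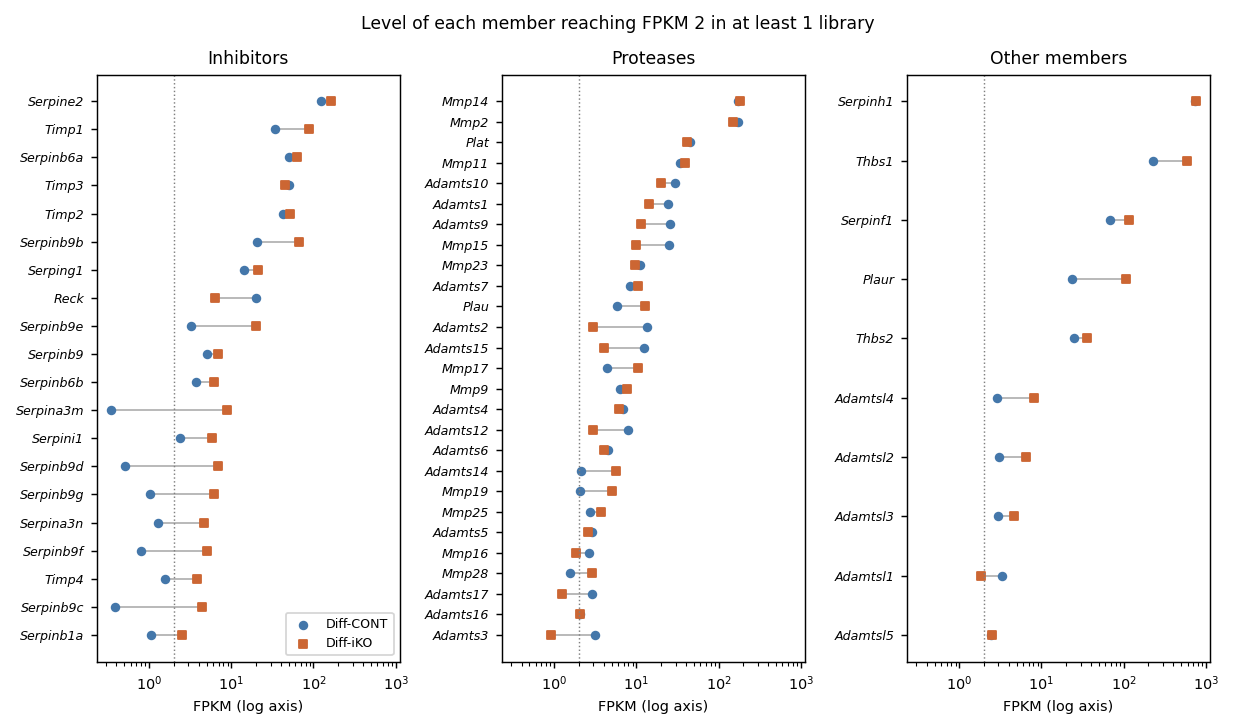
FPKM (log axis) of the 57 members that reached FPKM 2 in at least 1 library, with 1 circle for the Diff–CONT library and 1 square for the Diff–iKO library per gene. Grey lines join the values of a gene and the dotted line marks FPKM 2; the squares lie to the right for 18 of 20 inhibitors and to the left for 17 of 27 proteases.

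Summed levels, which are per transcript length, gave the same order. Inhibitors summed to 380 FPKM in Diff–CONT and 592 in Diff–iKO, 1.56-fold more (log2 ratio 0.64, interval 0.61 to 0.67). Proteases summed to 642 and 575 FPKM (log2 ratio -0.16, interval -0.18 to -0.14). The ratio of inhibitor to protease FPKM was thus 0.592 in Diff–CONT and 1.03 in Diff–iKO. This ratio does not set inhibitors against their own targets. MMPs and ADAMTS proteases made up 590 and 521 of the protease FPKM, and TIMPs with Reck stood at 0.249 and 0.375 times these. Clade B serpins, which are intracellular, made up 88.5 and 193 of the inhibitor FPKM. Within the inhibitors, the inhibitory serpins summed to 233 and 397 FPKM. TIMPs with Reck summed to 147 and 195 FPKM.

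**Figure D2:**
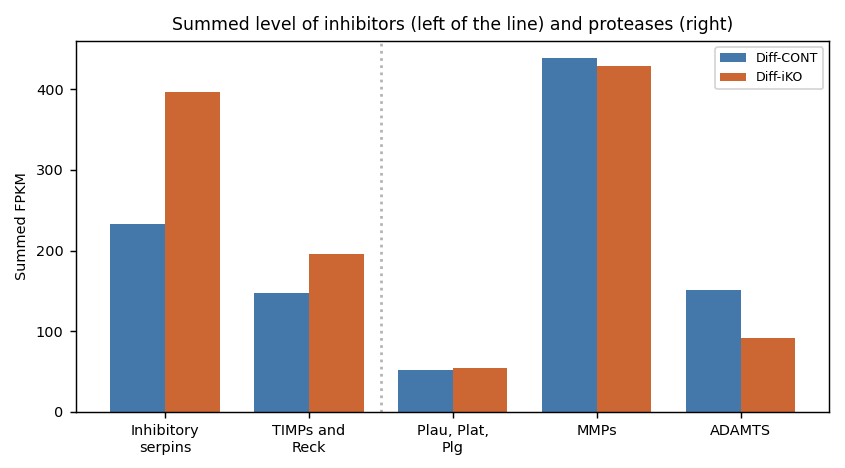
Summed FPKM of inhibitory serpins, of TIMPs with Reck, of the plasminogen system proteases, of MMPs and of ADAMTS proteases, in the Diff–CONT and Diff–iKO libraries. Inhibitory serpins stood at 233 and 397 FPKM, whereas MMPs stood at 438 and 429 and ADAMTS proteases at 151 and 91.1.

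In the plasminogen system, the receptor and 1 of the 2 activators were higher in Diff–iKO. Urokinase (Plau) and tissue plasminogen activator (Plat) convert plasminogen (Plg) to plasmin, and Plaur holds urokinase at the cell surface. Plaur was at 23.5 FPKM in Diff–CONT and 105 in Diff–iKO (2.17, interval 2.06 to 2.27).

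Plau was at 5.85 FPKM in Diff–CONT and 12.8 in Diff–iKO (log2 ratio 1.13, interval 0.94 to 1.32), so its counting interval includes the cut-off. Plat was higher in level than Plau in both libraries, at 44.6 and 41.6 FPKM, and differed little between them (-0.10). The ratio of Plaur to Plau was 4.01 and 8.23. Serpine2, an inhibitor of thrombin and urokinase and the most abundant inhibitor described, was at 122 and 162 FPKM (0.41) and did not pass the cut-off. The macrophage list, a cell type that carries Plaur, summed to 14.2 and 40.01 FPKM. Of it, Cd68 and Csf1r were higher, and the other 6 of 8 genes stayed under FPKM 1 in both libraries. Of these 6, Lyz2 was at 0.497 and 0.0511 FPKM, Ptprc at 0.0734 and 0.00893 and Itgam at 0.126 and 0.0695, so these stood lower in Diff–iKO. Adgre1 was at 0.0109 and 0.0146 FPKM, Fcgr1 was listed at 0 in both and Cx3cr1 at 0.121 and 0. The part of such cells in these values was not tested.

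Plasminogen itself, the substrate of both activators, was at 1.52 FPKM in Diff–CONT, about 117 fragments, and listed at 0 in Diff–iKO. The upper end of its counting interval is a log2 ratio of -4.54. Serpinf2, which encodes the plasmin inhibitor antiplasmin, was at 1.66 FPKM and 0.156, about 100 and 7 fragments (log2 ratio -3.42, interval -4.77 to -2.32). Both genes missed the FPKM minimum and are outside the counts above. Some further serpins known as plasma proteins of the liver rested on few fragments, and those named here were chosen after their values were seen. Serpinc1, or antithrombin, had about 22 fragments in Diff–CONT and 2 in Diff–iKO. Serpina10 had about 14 and 0 fragments, and Serpina1b, an alpha-1-antitrypsin gene with close copies, about 11 and 0, whereas Serpind1, or heparin cofactor, had about 3 in each. Serpina7, which carries thyroid hormone, had about 13 and 21. Other plasma serpins, Serping1 and Serpina3n, were at higher levels in Diff–iKO and are given with their families. Visceral endoderm, which makes plasma proteins in the embryo, had its list summed at 320 and 21.4 FPKM as given above, with none of its 8 genes at 0. Rbp4 stood at 111 and 3.05 FPKM and Apob at 47.0 and 0.290, whereas Trf, or transferrin, was higher, at 4.18 and 11.2. Its part in the values of these serpins was not tested.

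Clade B serpins are intracellular inhibitors, and several protect cells from their own or incoming proteases, as Serpinb9 does against granzyme B. The mouse genome carries 15 of the measured clade B genes in 1 cluster on chromosome 13 (32842092 to 34002794 in GRCm38, 1160703 bases). Of these, 10 reached FPKM 2 and 7 were past the cut-off upwards, against 6.73% of all genes reaching FPKM 2. Of these 7, 5 reached FPKM 2 only in Diff–iKO, and of the 5 genes at FPKM 2 or more in Diff–CONT, 2 were higher and 0 lower. The 12 Serpinb genes of chromosome 1 included none that reached FPKM 2. They summed to 1.67 FPKM in Diff–CONT and 2.49 in Diff–iKO.

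Within the chromosome 13 cluster, the Serpinb9 paralogs b to g formed a run of higher genes, summing to 26.5 FPKM in Diff–CONT and 109 in Diff–iKO (4.11-fold). Serpinb9b was the most abundant, at 20.6 and 66.4 FPKM (log2 ratio 1.69, interval 1.61 to 1.76). Serpinb9e was at 3.21 and 20.1 FPKM (2.65). Serpinb9d was at 0.504 and 6.94 FPKM, which is about 16 and 166 fragments (3.78, interval 3.05 to 4.64). Serpinb9c was at 0.386 and 4.41 FPKM (3.52), Serpinb9f at 0.793 and 5.07 (2.68) and Serpinb9g at 1.02 and 6.13 (2.59).

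The founding gene Serpinb9, next to Serpinb9b, was at 5.12 and 6.90 FPKM (0.43) and did not pass. At the far end of the cluster Serpinb6a, a broadly expressed inhibitor, was at 49.8 and 63.4 FPKM (0.35), and at the near end Serpinb1a, an inhibitor of neutrophil proteases, was at 1.06 and 2.52 (1.25, interval 0.76 to 1.76). Serpinb1b, which lies between Serpinb9b and Serpinb9c, had about 1 fragment in Diff–CONT and 11 in Diff–iKO.

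**Figure D3:**
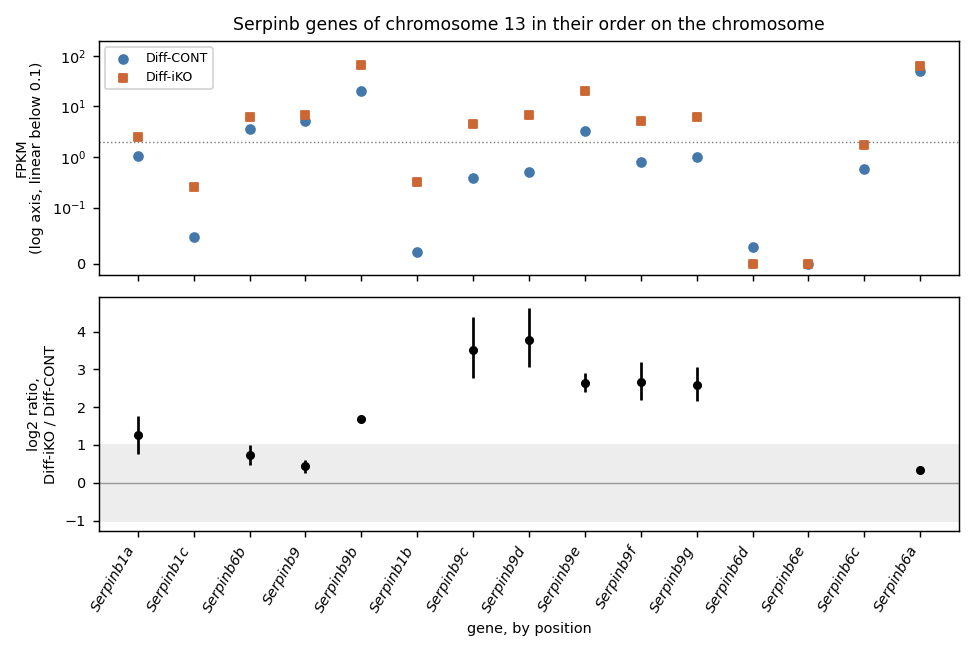
The 15 Serpinb genes of chromosome 13 in their order on the chromosome, with FPKM in the 2 libraries above (log axis, linear below 0.1, dotted line at FPKM 2). The log2 ratio below has its 95% counting interval and is drawn for the 10 genes that reached FPKM 2. Serpinb9b to Serpinb9g lie above the grey band of less than 2-fold difference, and Serpinb6b, Serpinb9 and Serpinb6a within it.

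Several of these paralogs share sequence, so part of their reads may have been divided among copies. Of all 75-base windows of the longest transcript with a RefSeq entry, none of Serpinb9b was found in another gene. The share was 17.8% for Serpinb9c, 16.8% for Serpinb9d and 17.5% for Serpinb9e. It was 44.9% for Serpinb9g and 65.5% for Serpinb9f, and the gene model Gm11397 alone held 52.3% of the windows of Serpinb9f. The values of Serpinb9f and Serpinb9g are therefore uncertain as single-gene values. Among the 120 members, 101 had less than 5% of windows shared. Serpinb9 paralogs are known from the placenta, and the trophoblast list had 5 of 8 genes higher and 2 lower, at summed levels of 84.3 and 72.3 FPKM. Prl3d1, a giant cell hormone, was at 0.484 and 6.19 FPKM, and Tpbpa, of the spongiotrophoblast, at 1.07 and 5.63. The 2 lower genes were Hand1, at 70.8 and 31.3 FPKM, which made up most of the Diff–CONT sum, and Cdx2, at 4.00 and 0.705. No gene of the list was at 0, and its part in the Serpinb9 values was not tested.

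The bases upstream of these genes are shown because Serpinb9d to Serpinb9g are much alike there, Serpinb9c less so, and Serpinb9b and Serpinb9 differ from them. Each line gives the 100 bases before the RefSeq gene start (GRCm38.p6, gene strand). Capitals mark TGACGT, the letters that begin the cAMP response element.
Serpinb9c, chr13:33159755-33159854, minus strand: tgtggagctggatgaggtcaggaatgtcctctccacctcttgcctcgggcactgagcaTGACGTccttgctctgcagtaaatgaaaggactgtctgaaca
Serpinb9d, chr13:33192855-33192954, plus strand: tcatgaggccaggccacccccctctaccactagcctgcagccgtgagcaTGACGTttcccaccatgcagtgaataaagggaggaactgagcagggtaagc
Serpinb9e, chr13:33249508-33249607, plus strand: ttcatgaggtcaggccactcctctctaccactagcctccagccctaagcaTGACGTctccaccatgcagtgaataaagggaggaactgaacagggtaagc
Serpinb9f, chr13:33323977-33324076, plus strand: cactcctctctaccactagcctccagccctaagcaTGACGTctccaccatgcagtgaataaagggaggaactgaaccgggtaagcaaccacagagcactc
Serpinb9g, chr13:33484690-33484789, plus strand: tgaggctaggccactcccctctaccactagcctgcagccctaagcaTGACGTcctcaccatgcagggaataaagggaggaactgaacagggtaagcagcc
Serpinb9b, chr13:33027314-33027413, plus strand: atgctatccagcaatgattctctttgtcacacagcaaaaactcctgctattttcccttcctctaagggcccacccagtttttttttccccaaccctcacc
Serpinb9, chr13:33004441-33004540, plus strand: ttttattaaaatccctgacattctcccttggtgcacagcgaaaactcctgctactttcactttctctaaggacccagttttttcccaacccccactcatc

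Over 250 upstream bases, identity among Serpinb9d to Serpinb9g was 80.8% to 92.9% (6 pairs), and that of Serpinb9b to these 4 genes was 45.9% to 48.3%, counted over aligned positions with gaps. Serpinb9c, shown for the outermost of its 2 RefSeq starts, had 60.1% to 64.4% identity to the same 4 genes, and its other start had no match. TGACGT, on either strand, was present in 6.47% of all 32851 promoters of the same length. The table held a promoter for 14 of the members past the cut-off upwards, and 6 of these had the letters: Serpinb9c to Serpinb9g and Timp1. Of 7 with a promoter among those past it downwards, 1 had them (Adamts3). In all, 8 of the 91 members with a promoter had them. The Serpinb9d to Serpinb9g promoters count as related sequences, not as separate cases. Serpinb9b was higher without the letters. The motif was picked after these promoters had been read, and a match is a description of letters.

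Clade A serpins are mostly secreted plasma proteins, and their cluster of 24 genes on chromosome 12 had 2 genes that reached FPKM 2. Both encode members of the Serpina3 family of antichymotrypsin-like inhibitors and both were higher in Diff–iKO. Both reached FPKM 2 only in Diff–iKO, so their direction was fixed by the minimum. The other 22 stayed under FPKM 1 in both libraries, among them Serpina10 and Serpina1b, given above with fragments in Diff–CONT only. Serpina3m was at 0.339 and 8.95 FPKM, about 15 and 296 fragments (log2 ratio 4.72, interval 3.98 to 5.58). Serpina3n, an acute-phase inhibitor, was at 1.30 and 4.69 FPKM (1.85, interval 1.47 to 2.27). Of the windows of Serpina3m, 9.65% were shared with other genes, mostly with its neighbour Serpina3k, which was listed at 0 in both libraries. The gene models of these neighbours overlap on the same strand.

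Among the remaining serpins, Serpini1, or neuroserpin, an inhibitor of tissue plasminogen activator, was at 2.36 and 5.78 FPKM (1.29, interval 1.08 to 1.51). Serping1, the C1 inhibitor of complement, was at 14.5 and 21.0 FPKM (0.54). Of 17 serpins that reached FPKM 2, 10 were higher, 0 were lower and 7 did not pass. Across all genes reaching FPKM 2, 6.73% were higher and 8.39% lower. Of the higher serpins, Serpina3m, Serpina3n, Serpinb1a, Serpinb9c, Serpinb9d, Serpinb9f and Serpinb9g reached FPKM 2 only in Diff–iKO, so the minimum fixed their direction. Serpins below the minimum differed in both directions, as given above for Serpinf2 and Serpina7. Of 5 serpins without inhibitory activity, 2 reached FPKM 2 and neither passed the cut-off. Serpinh1, the collagen chaperone HSP47, was the most abundant member, at 747 and 764 FPKM (0.03), and its ratio turned to -0.06 when the libraries were scaled to the same sum. It made up 71.3% of the summed serpin FPKM in Diff–CONT and 59.7% in Diff–iKO. Serpinf1, the secreted factor PEDF, was at 67.8 and 118 FPKM (0.80).

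The metalloprotease inhibitors did not move in 1 direction. Timp1 was at 34.02 FPKM in Diff–CONT and 88.9 in Diff–iKO (log2 ratio 1.39, interval 1.25 to 1.52). Timp4 was at 1.57 and 3.87 FPKM (1.30, interval 1.08 to 1.53). Timp2, which also takes part in the activation of Mmp2 on Mmp14, was at 42.1 and 51.5 FPKM (0.29), and Timp3, the matrix-bound TIMP, at 49.7 and 44.5 (-0.16).

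Reck was the inhibitor that was lower, at 19.7 and 6.39 FPKM (-1.63, interval -1.76 to -1.498). The 4 TIMPs summed to 127 FPKM in Diff–CONT and 189 in Diff–iKO. TIMPs with Reck stood at 0.249 times the summed MMPs and ADAMTS proteases in Diff–CONT and at 0.375 times in Diff–iKO.

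The MMPs as a family were near the same level in both libraries, at 438 and 429 FPKM summed over 23 genes. Of 11 that reached FPKM 2, 2 were higher, 1 was lower and 8 did not pass. Over all genes reaching FPKM 2, 6.73% were higher and 8.39% lower, so these counts rest on few genes. Mmp2, a gelatinase, was at 174 and 151 FPKM (-0.21). Mmp14, the membrane-type protease that activates it, was at 173 and 184 (0.09, and -0.0022 when the libraries were scaled to the same sum). Together they made up 79.1% of the MMP FPKM in Diff–CONT and 78.0% in Diff–iKO.

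Other membrane-type MMPs differed in opposite directions. Mmp15 was at 25.2 and 9.76 FPKM (-1.37, interval -1.46 to -1.27), whereas Mmp17 was at 4.41 and 10.5 (1.26, interval 1.13 to 1.38). Mmp19, a secreted protease of basement membrane proteins, was at 2.06 and 5.00 FPKM (1.28, interval 0.96 to 1.60). Mmp11, or stromelysin-3, was at 34.2 and 39.3 FPKM (0.20), and Mmp23 was at 11.0 and 9.67 (-0.19).

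A cluster of 10 Mmp genes, with collagenases and the stromelysins Mmp3 and Mmp10, lies on chromosome 9 (7272514 to 7699585 in GRCm38), and none of them reached FPKM 2. Their summed level was 0.564 FPKM in Diff–CONT and 3.07 in Diff–iKO. Mmp10 had about 4 fragments in Diff–CONT and 54 in Diff–iKO (0.086 and 1.55 FPKM). Mmp3 had about 5 and 19 fragments, Mmp12 about 1 and 16, and Mmp13 about 19 and 20. Mmp7, Mmp8, Mmp20 and Mmp27 were listed at 0 in both. Between 3.76% and 3.94% of the windows of Mmp3 and Mmp10 were shared between these genes.

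Promoters of this cluster are known for AP-1 sites, to which Fos and Jun proteins bind, and the windows of the 3 genes with the greatest gain in fragments are shown with that of Plaur and, for contrast, Mmp13. Capitals mark TGAGTCA or its reverse complement (RefSeq GRCm38.p6, gene strand).
Mmp10, chr9:7502269-7502295, plus strand: agcacccatgTGAGTCAtgcttagtga
Mmp3, chr9:7445766-7445792, plus strand: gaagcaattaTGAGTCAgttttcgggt
Mmp12, chr9:7347320-7347346, plus strand: acatcaacagTGAGTCAgatagaggat
Mmp13, chr9:7272469-7272495, plus strand: cccaaagtggTGACTCAtcactatcat
Plaur, chr7:24462404-24462430, plus strand: cccctggagcTGACTCActctttagca

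TGAGTCA, on either strand, was in 7 of the 10 Mmp promoters of chromosome 9, against 4.46% of all promoters of the same length. It was in 4 of 17 Serpina promoters of chromosome 12, in 2 of 11 Serpinb promoters of chromosome 1 and in 0 of 14 of chromosome 13, and in 14 of the 91 member promoters in all. With any base in the middle (TGANTCA), the search tried first, the counts were 8 of 10 for the Mmp genes, 4 of 17, 7 of 11 and 0 of 14 for these serpin clusters, and 20 of 91 in all, against 6.75% of all promoters. Of the 7 genes with TGAGTCA, Mmp7 was listed at 0 in both libraries, and the other 6 had about 1 fragment or more in each. Among these 6, Mmp1a had about 4 fragments in Diff–CONT and 2 in Diff–iKO, and Mmp1b about 1 in each. The windows of Mmp1a, Mmp1b and Mmp7 are not printed. The 3 genes without it (Mmp8, Mmp20, Mmp27) were listed at 0 in both, and 1 of these 3 holds TGANTCA. These values rest on few fragments, and the part of AP-1 sites in them was not tested. Among the members past the cut-off upwards, 1 of 14 promoters held TGAGTCA (Plaur).

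ADAMTS proteases were the class that was mostly lower. Of 14 that reached FPKM 2, 12 had a ratio below 0, of which 6 were past the cut-off, and 1 gene was past it upwards. Of all genes reaching FPKM 2, 8.39% were past it downwards and 6.73% upwards, and 49.7% had a ratio above 0. Adamts3 and Adamts17 reached FPKM 2 only in Diff–CONT, so the minimum fixed their direction. Among the 12 genes at FPKM 2 or more in both libraries, 4 were lower and 1 higher, with a median log2 ratio of -0.38. The 19 genes summed to 151 FPKM in Diff–CONT and 91.1 in Diff–iKO. The median log2 ratio of the 14 that reached FPKM 2 was -0.69. The proteases that remove the N-terminal propeptide of fibrillar procollagens were split. Adamts2 was at 13.6 and 2.94 FPKM (-2.21, interval -2.35 to -2.07) and Adamts3 at 3.10 and 0.906 (-1.78, interval -2.16 to -1.42). The third of them, Adamts14, was at 2.14 and 5.67 FPKM (1.40, interval 1.21 to 1.61).

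Among the proteoglycan-cutting members, Adamts15 was at 12.5 and 4.00 FPKM (-1.64) and Adamts9 at 25.7 and 11.3 (-1.18). Adamts1 was at 24.3 and 14.2 FPKM (-0.78), short of the cut-off. Of the other members, Adamts12 was at 7.81 and 2.98 FPKM (-1.39) and Adamts17 at 2.88 and 1.26 (-1.19, interval -1.45 to -0.93). Adamts10, which acts on fibrillin microfibrils, was at 29.8 and 19.8 FPKM (-0.59), and Adamts7 was on the other side of 0, at 8.46 and 10.5 (0.32). Adamts4, Adamts5, Adamts6 and Adamts16 also reached FPKM 2 and differed little, with log2 ratios of -0.17, -0.15, -0.14 and -0.01. The remaining 5 stayed below the FPKM minimum and differed in direction. Adamts8, a proteoglycan-cutting member, was at 1.21 and 1.84 FPKM (0.61, interval 0.25 to 0.96). Adamts18 was at 1.07 and 0.191 FPKM, Adamts19 at 1.03 and 0.309 and Adamts20 at 1.24 and 0.408. Adamts13, which cuts von Willebrand factor, had about 3 fragments in Diff–CONT and 2 in Diff–iKO.

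The mesenchyme list, whose collagens are substrates of these proteases, had 5 of 8 genes lower and none higher, at summed levels of 1954 and 1709 FPKM. Its collagen genes were unequal: Col1a1 was at 880 and 1199 FPKM and Col3a1 at 386 and 187. Of the other lists, the endothelial list had 5 of 8 genes lower and 1 higher, at summed levels of 80.5 and 102 FPKM. In the cardiomyocyte list only 3 of 8 genes reached FPKM 2 and these were lower, and the list summed to 37.8 and 10.2 FPKM. Below that minimum, Nppa was at 0.259 and 0.898 FPKM and Ttn at 0.132 and 0.271, so both stood higher. Myh6, at 1.85 and 0.207 FPKM, Nkx2-5, at 1.24 and 0.533, and Actn2, at 1.49 and 1.23, stood lower. No gene of these 3 lists was at 0, and their part in the ADAMTS values was not tested.

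**Figure D4:**
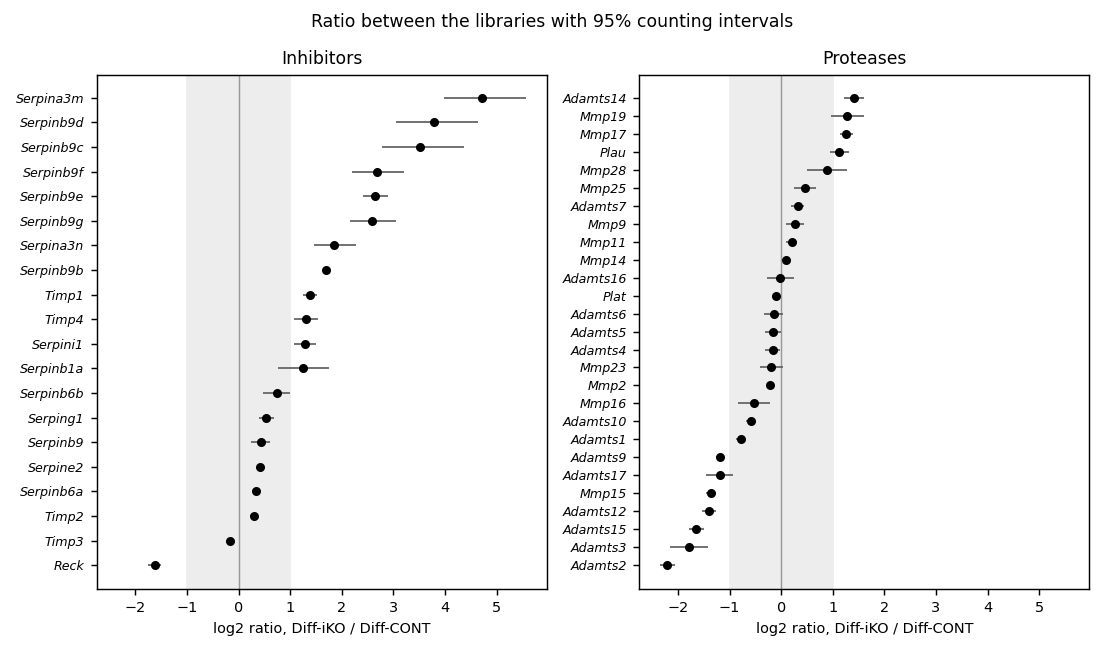
Log2 ratio (Diff–iKO over Diff–CONT) of the 20 inhibitors and 27 proteases that reached FPKM 2, with 95% counting intervals as bars. The grey band marks less than 2-fold difference; inhibitors extend to 4.72 (Serpina3m) with Reck alone below the band, and ADAMTS genes fill most of the lower end of the proteases, down to -2.21 (Adamts2).

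ADAMTS-like proteins bind the matrix without cutting it, and their 5 genes differed in both directions. Adamtsl4 was at 2.87 and 8.10 FPKM (1.497, interval 1.31 to 1.69) and Adamtsl2 at 3.08 and 6.54 (1.08, interval 0.88 to 1.29). Adamtsl1 was at 3.31 and 1.83 FPKM (-0.85, interval -1.05 to -0.66), short of the cut-off. Adamtsl3 was at 2.92 and 4.58 FPKM (0.65) and Adamtsl5 at 2.41 and 2.48 (0.04), and neither passed. Thbs1, thrombospondin 1, a matrix protein that binds several proteases and activates latent TGF-β, was at 228 FPKM in Diff–CONT and 595 in Diff–iKO (1.38, interval 1.36 to 1.40). Thbs2 was at 25.2 and 36.1 FPKM (0.52).

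A list of 56 further genes of extracellular and lysosomal proteolysis, outside the symbols above, was read beside the members. Of 43 that reached FPKM 2, 10 were past the cut-off upwards, 2 downwards and 31 did not pass, with a median log2 ratio of 0.34. The shares over all genes reaching FPKM 2 were 6.73% upwards and 8.39% downwards. The initiator of coagulation, F3, or tissue factor, was at 32.4 and 119 FPKM (1.87), and its inhibitor Tfpi at 35.2 and 140 (1.99). Pcsk6, a proprotein convertase, was at 6.33 and 34.4 FPKM (2.44), while the related Pcsk5 was at 8.94 and 3.87 (-1.21). Vldlr, a receptor that takes up protease and serpin complexes, was at 13.9 and 3.72 FPKM (-1.90).

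The lysosomal protease Ctsd was at 461 and 1169 FPKM (1.34). Among the abundant genes that did not pass, Bsg, which induces MMPs in neighbouring cells, was at 514 and 528 FPKM (0.04, and -0.055 when the libraries were scaled to the same sum), and the cathepsin Ctsl at 393 and 571 (0.54). The other genes past the cut-off upwards were Adam8, F2rl1, Itgb3, Pcolce2, Procr and Tll1, between 1.06 and 1.48 on the log2 scale. The counting intervals of F2rl1, Itgb3, Procr and Tll1 include the cut-off. F2rl1 and Itgb3 fell short of it when the libraries were scaled to the same sum, and Itgb3 and Tll1 with a pseudocount of 1. Bmp1, which removes the C-terminal propeptide of procollagens, was at 116 and 232 FPKM (1.00) and fell just short of 2-fold.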

How the data were processed

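The authors deposited FPKM values, made with STAR 2.7.9a on mm10 and with Cuffquant and Cuffnorm of Cufflinks 2.2.1. The submitters' processing notes give the versions. The gene annotation and the strand setting of the counting are not given in the sources used here, so overlapping genes are uncertain. The 2 columns were matched to the libraries by name, and 0 other columns of values were present.

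The symbols matched 121 genes, of which 1 is not reported here and entered no count, median or sum of members. Members, roles, gene lists and motifs were chosen with earlier results of these data known. The ratio was taken without a pseudocount. The cut-off was a fold change of 2 and FPKM 2 in at least 1 library. Named members were those past the cut-off, the 3 highest of each role, and those with FPKM of at least 10 that missed it. Of the list outside the symbols, the rule took those past the cut-off and the 3 with the highest mean. Members named below the minimum or under FPKM 10 without passing, Bmp1, and marker genes named singly were chosen after their values were seen, as were the printed promoters.

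Depth was recovered from the FPKM steps of genes with 1 RefSeq transcript of at least 1000 bases. Of the low values, 87.6% and 87.2% lay within 0.2 of a whole fragment, against 40% by chance. Fragments per gene use the shortest transcript, less 180 bases, and are approximate. Coordinates and windows are from GENCODE vM21 (GRCm38), and promoters from the RefSeq table, which held 91 of the 120 members. Motifs were sought in the 250 upstream bases. The AP-1 search was first run with any middle base and then narrowed to the usual letters, and both counts are given. The steps were tested on simulated data. Scripts ran in Python 3.11.15 with biopython 1.88, scipy 1.17.1, matplotlib 3.10.9, pandas 2.3.3 and numpy 2.4.6. Alternatives were other FPKM minimums, pseudocounts, fold changes, scalings and memberships of the classes.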

Additional observations from a re-analysis of the deposited data

How the results depend on the processing

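Of 97 alternative values of the counts, medians and sums, 74 were graded as near the reported value and 23 as moved. This grade is loose. Counts of 15 members higher with a minimum of 5, and 14 without Serpinb9b to Serpinb9g, were graded as near 20. A protease median of -0.25 with the libraries scaled to the same sum was graded as near -0.15. No paired analysis was possible because each condition had 1 library, and no library could be left out for the same reason. With an FPKM minimum of 1, 13 members and 5 genes of the list outside the symbols were lower, and the median of all members, 0.41 as reported, was 0.35. With a minimum of 5, the median of the inhibitors was 1.01. With no minimum, 33 members were higher and 24 lower, 8 genes outside were lower, and the median of the inhibitors was 0.43. At FC 4, 7 members were higher and 1 lower, and outside the symbols 1 was higher and 0 lower. At FC 1.5, 16 outside were higher. With a pseudocount of 1 the median of the inhibitors was 0.97 and that of all members 0.35. Scaling the libraries to the same sum of FPKM, a shift of -0.09 on the log2 scale, gave -0.25 for the summed proteases, 0.55 for the summed inhibitors and 0.32 for the median of all members. It reversed 3 of 300 alternative values of named genes, to -0.0022 for Mmp14, -0.061 for Serpinh1 and -0.055 for Bsg. Without the most abundant member the sums gave -0.26 for proteases and 0.74 for inhibitors, and with every serpin counted as an inhibitor 0.30. Without Serpinb9b to Serpinb9g, an alternative chosen after seeing the data, the inhibitors gave a median of 0.64 and a log2 ratio of the sums of 0.45.

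Of the 28 members past the cut-off, the counting intervals of 5 include it (Adamts17, Adamtsl2, Mmp19, Plau, Serpinb1a). In at least 1 of 5 settings, Adamts17, Adamtsl2, Mmp19, Serpinb1a and Timp4 fell short of it. Depth limits the members with few fragments, such as Mmp3 and Mmp12. The spread between cultures is unknown.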

Other observations

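Members of the coagulation and protein C pathways, which share inhibitors with the plasminogen system, differed by gene. Procr, the endothelial protein C receptor, was at 4.22 FPKM in Diff–CONT and 9.73 in Diff–iKO (log2 ratio 1.21), and Thbd, thrombomodulin, at 9.91 and 12.04 (0.28). The thrombin receptor F2r was at 77.3 and 61.2 FPKM (-0.34), and F2rl1, which responds to trypsin-like proteases, at 21.4 and 44.5 (1.06). The circulating factors were low: F2, prothrombin, was at 1.99 and 0.532 FPKM and F10 at 0.604 and 0.0192. Membrane-bound serine proteases and their Kunitz inhibitors did not pass the cut-off: St14, or matriptase, was at 46.0 and 89.8 FPKM (0.96), Prss8 at 39.5 and 36.3 (-0.12), Spint1 at 52.3 and 66.4 (0.34) and Spint2 at 125 and 137 (0.13). These genes were named after their values were seen.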
